A study of Owenia fusiformis with 26 samples.

Results

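Fertilisation in the annelid *Owenia fusiformis* was examined here by comparing RNA from zygotes, the fertilised eggs at the 1-cell stage, with RNA from oocytes. The comparison used the 2 zygote and the 2 oocyte libraries, 4 of the 26 samples of the series, chosen by their stage labels. The series follows wild-type development of this worm by RNA-seq from the oocyte to the mature larva, and it also holds chromatin accessibility data of the coeloblastula, which were not used here. Embryos came from in vitro fertilisation and were kept in artificial seawater. The labels give no strain, genotype or treatment for either stage, and neither the number of eggs per library nor the parents of a batch is given. Both libraries of a stage carry a replicate number, 1 or 2. The paper describes its stage time course as coming from 2 biological replicates. The labels do not say what libraries with the same number share across stages. In a fit with stage alone, p-values measure the spread between libraries of a stage.

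As background, an animal egg is loaded during oogenesis with messenger RNA and protein, and the first cleavages run largely on this maternal store. Fertilisation releases the egg from arrest and starts the mitotic cycles. It also changes which stored messages are translated and which are degraded, often through a longer or shorter poly(A) tail, while most embryonic genes are still silent. The values are relative to the other transcripts of a library, so an overall gain or loss of RNA per egg would not be seen. In such bulk samples, fewer cells of a type and less RNA per cell cannot be told apart.

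The values of a library summed to 39433145 and 36208936 in the zygotes and to 39049648 and 37305338 in the oocytes. The steps between low values put the depth at about 24700000 and 29600000 reads in the zygote libraries, against about 25000000 and 23100000 in the oocyte libraries. Of the 26966 genes, 16186 and 16583 had a value of at least 10 in the zygotes, and 16663 and 17164 did so in the oocytes. Libraries sharing a replicate number resembled each other more than libraries of the same stage did. On the log2(value + 1) scale, the correlation across genes was 0.975 between zygote 1 and oocyte 1 and 0.96 between zygote 2 and oocyte 2. It was 0.914 between the zygote libraries and 0.889 between the oocyte libraries. Some genes differed far more between replicate numbers than between stages. A gene whose best protein match is the frog homeobox factor notochord (NOTO, OFUSG06560) had 255 and 0 in the zygotes, against 245 and 0 in the oocytes. Likewise, *RFX6* (OFUSG25663), a transcription factor of the RFX family, had 71.8 and 598 in the zygotes and 76.2 and 644 in the oocytes. These genes were chosen as examples after their values were seen. From the oocyte to the 8-cell stage, the log2 ratio of replicate 1 to replicate 2 was taken per gene and stage, and it correlated across genes in all 10 pairs of stages, with r between 0.57 and 0.69. What the number stands for is not given in the labels.

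The number of genes that differed depended on whether the replicate number entered the test. In the fit of all 20 libraries with stage as the only factor, 0 of 23852 genes (0%) were called higher and 0 (0%) lower in zygotes at an adjusted p under 0.05 (limma). In that fit the smallest adjusted p was 0.199, and 1422 genes had an unadjusted p under 0.05. With the replicate number as a block, in the 10 libraries from the oocyte to the 8-cell stage, 906 genes were called higher in zygotes and 755 lower, which is 4.86% and 4.05% of the 18656 genes tested. This blocked fit was chosen after the data were seen. Its p-values measure the spread left in these 10 libraries once stage and replicate number are taken out. Each gene has 4 residual degrees of freedom there, and limma shares the estimate of spread across genes. Below, a gene is "called" where its adjusted p in the blocked fit was under 0.05, and all log2 differences are zygote minus oocyte on the log2(value + 1) scale with the standard error of that fit. The count rested on single libraries. It was 0 without zygote replicate 2, 1002 without zygote replicate 1, 6234 without oocyte replicate 1 and 987 without oocyte replicate 2. It was also 0 when limma's variance trend was left out and 0 with the block in all 20 libraries.

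Most called differences were of moderate size. The 906 genes higher in zygotes had a median log2 difference of 0.69 (range 0.37 to 5.76), and 99 of them exceeded 1. The 755 lower genes had a median of -0.68 (range -6.2 to -0.37), and 91 were beyond -1. All called genes moved the same way within both replicate numbers, as did 62.5% of all genes tested. Both zygotes lay above both oocytes for 687 of the 906 genes, against 13.1% of all genes tested, and below both for 504 of the 755, against 13.5%. Genes that agree between the numbers and genes without overlap are both favoured by the test itself. The change was larger within replicate number 2, where the median size of the log2 difference over all genes tested was 0.53, than within number 1, where it was 0.24. For comparison, replicates of one stage differed by a median of 0.59 in zygotes and 0.74 in oocytes. The median log2 difference of all genes was -0.03.

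**Figure D1:**
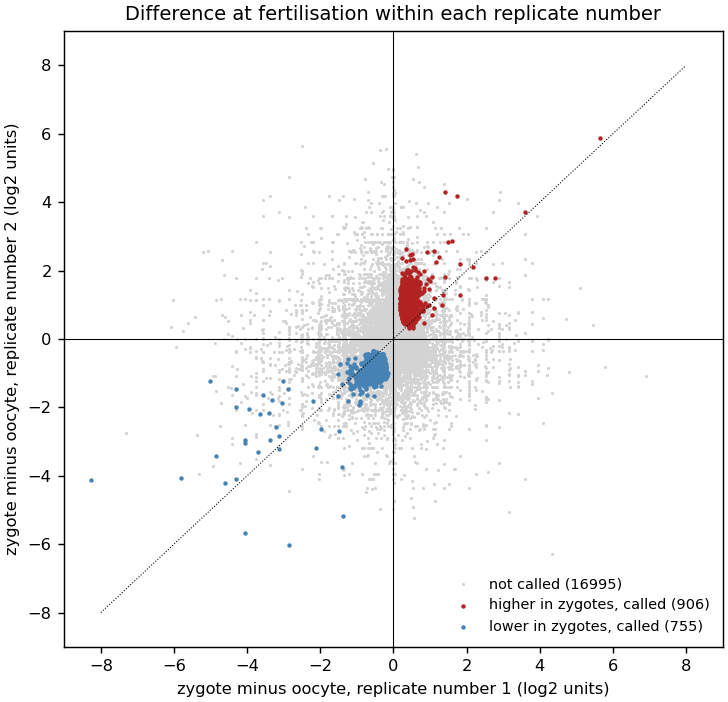
Each point is one of the 18656 genes tested, with the zygote minus oocyte difference within replicate number 1 on the horizontal axis and within number 2 on the vertical axis, both in log2(value + 1) units. Genes called higher in zygotes (906, red) and lower (755, blue) lie in the quadrants where both numbers agree in sign, mostly further from 0 on the vertical axis, and the dotted line marks equal differences.

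After fertilisation, the median levels of the genes called lower stayed near those of the zygote. The median of the genes called higher rose further in replicate 1 and changed less in replicate 2. The median level of the 906 higher genes was 2321 and 2469 in the zygotes, against 1780 and 1203 in the oocytes. The same genes had medians of 2573 and 2391 at the 2-cell stage and 2796 and 2560 at the 8-cell stage. For the 755 lower genes the median was 1248 and 1587 in zygotes, against 1786 and 2842 in oocytes, and it was 1257 and 1615 at the 8-cell stage. Such medians do not follow single genes. At the 8-cell stage *FGFR*, called higher, had 748 and 484, against 990 and 706 in zygotes and 759 and 301 in oocytes. *PLXA2*, also called higher, had 3354 and 2988, against 2347 and 2432 in zygotes. How many genes moved either way was not counted. In the blocked fit, 0 of 18656 genes were called between the 2-cell stage and the zygote (limma, 500 with an unadjusted p under 0.05), 0 between the 4-cell and 2-cell stages (237 unadjusted) and 0 between the 8-cell and 4-cell stages (422 unadjusted). Against the oocyte, the blocked fit called 2359 genes at the 2-cell stage, 2431 at the 4-cell stage and 3316 at the 8-cell stage, beside 1661 in the zygote. These comparisons share libraries with that of zygote and oocyte, and whether they differ from it was not tested.

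Names were available only for genes in the study's own tables of drug-responsive genes, as the best protein match in another species. Of the genes tested, 421 had such a name. Of these, 15 were called higher (3.56%) and 16 lower (3.8%), shares close to the 4.86% and 4.05% over all genes. With *FGFR* and *VEGFR*, named by the study itself, the text has 33 named genes called, 17 higher and 16 lower. In the fit without the block, none of them was past the threshold. With the block, 19 of the 33 were called without oocyte replicate 2, 32 without oocyte replicate 1 (all but *ETS2B*), 9 without zygote replicate 1 and 0 without zygote replicate 2.

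The largest difference among the genes called lower was in a pair of genes with consecutive identifiers whose best match is mouse matrilin-1, a filament-forming protein of the extracellular matrix. *MATN1* OFUSG11710 had 7.98 and 19.5 in the zygotes, against 498 and 340 in the oocytes (log2 difference -4.92 ± 0.82 SE, adjusted p = 0.0135). *MATN1* OFUSG11711 had 0 and 13.4 in the zygotes, against 307 and 251 in the oocytes (-6.2 ± 1.15, adjusted p = 0.017). Neither gene's libraries overlapped between stages. Another gene with a consecutive identifier and a human matrilin-1 match, OFUSG11709, was low throughout, with 6.38 and 7.32 in zygotes and 18.7 and 4.83 in oocytes. In the embryo the pair was low but uneven between replicates. OFUSG11710 had 43.2 and 6.84 at the 2-cell stage and 21 and 70.5 at the 8-cell stage. Because the 3 genes match the same protein, reads shared between them could have been split by the counting.

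Another extracellular matrix gene, *BGH3* (OFUSG18570), matching the TGF-beta-induced protein that binds integrins and collagen, was also lower. It had 4882 and 6227 in zygotes, against 6793 and 11000 in oocytes (-0.65 ± 0.13, adjusted p = 0.0209), and the difference was -0.42 without oocyte replicate 2 (adjusted p = 0.0186). Among the secreted proteases and peroxidasins, 0 of 16 genes tested of 27 listed were called (3 with an unadjusted p under 0.05), and 13 of the 16 had a negative difference, with a median of -0.57 beside -0.03 over all genes. Most of these genes had low values. The matrix metalloproteinase *MMP12* (OFUSG11068) had 281 and 319 in the zygotes, against 371 and 543 in the oocytes, and did not pass the test (adjusted p = 0.0594).

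Of the 5 COPI coat subunits that had a name, 4 were called lower in zygotes, where 4.05% of all genes tested were. This coat, the coatomer, forms vesicles that carry proteins from the Golgi apparatus back to the endoplasmic reticulum. *COPE* (OFUSG09455), the epsilon subunit, had 1795 and 2857 in zygotes, against 3125 and 5643 in oocytes (-0.89 ± 0.12, adjusted p = 0.00725). The zeta subunit, *COPZ1* (OFUSG17693), had 1773 and 1955 in zygotes, against 2154 and 3692 in oocytes (-0.6 ± 0.17, adjusted p = 0.0467). Its difference rested on oocyte replicate 2, and was -0.27 without it (adjusted p = 0.196) and -0.93 without oocyte replicate 1. Neither gene's stages overlapped. For the beta subunit *COPB* (OFUSG00269), the values were 3400 and 5117 in zygotes and 4592 and 7352 in oocytes (-0.48 ± 0.1, adjusted p = 0.0242). The gamma subunit *COPG2* (OFUSG05866) had 2365 and 3838 in zygotes, against 3021 and 5763 in oocytes (-0.47 ± 0.11, adjusted p = 0.0269). In both of these genes the stages overlapped, and the zygote was lower within each replicate number. The alpha subunit, *COPA* (OFUSG16893), was not called, with 6377 and 11751 in zygotes and 6592 and 12339 in oocytes (-0.06, adjusted p = 0.749). These 5 genes were picked out of the secretory pathway list after their values were seen.

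Of 24 secretory pathway genes, 23 were tested, and 0 were called higher and 5 lower, beside 4.86% and 4.05% of all genes. The study took these names from drug-treated embryos, but the list was chosen with earlier results of the data compared here known. The median difference of the list was -0.13, beside -0.03 over all genes, and 17 of the 23 differences were negative. The remaining gene called was *COG8* (OFUSG12396), a subunit of the conserved oligomeric Golgi complex that tethers vesicles, with 1171 and 2064 in zygotes, against 1819 and 3034 in oocytes (-0.6 ± 0.13, adjusted p = 0.0232). *COG8* was not called with the block in only the 4 oocyte and zygote libraries or with the separate blocks. Its partner *COG5* (OFUSG07021) had 914 and 1638 in zygotes and 1083 and 1664 in oocytes and was not called. In 2 genes of the list, both zygotes lay above both oocytes, and neither gene passed the test. The ARF exchange factor *GBF1* (OFUSG11187) had 1896 and 1745 in zygotes, against 1436 and 1395 in oocytes (0.36, adjusted p = 0.0735), and the tethering factor *USO1* (OFUSG18054) had 15747 and 14932, against 14428 and 12400 (0.2, adjusted p = 0.24). A subunit of the COPII coat, which buds from the endoplasmic reticulum, was not called: *SEC13* (OFUSG05929) had 17894 and 14413 in zygotes and 17808 and 16702 in oocytes. The number of list members called lower was 9 without oocyte replicate 1, 4 without oocyte replicate 2, 2 without zygote replicate 1 and 0 without zygote replicate 2.

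**Figure D2:**
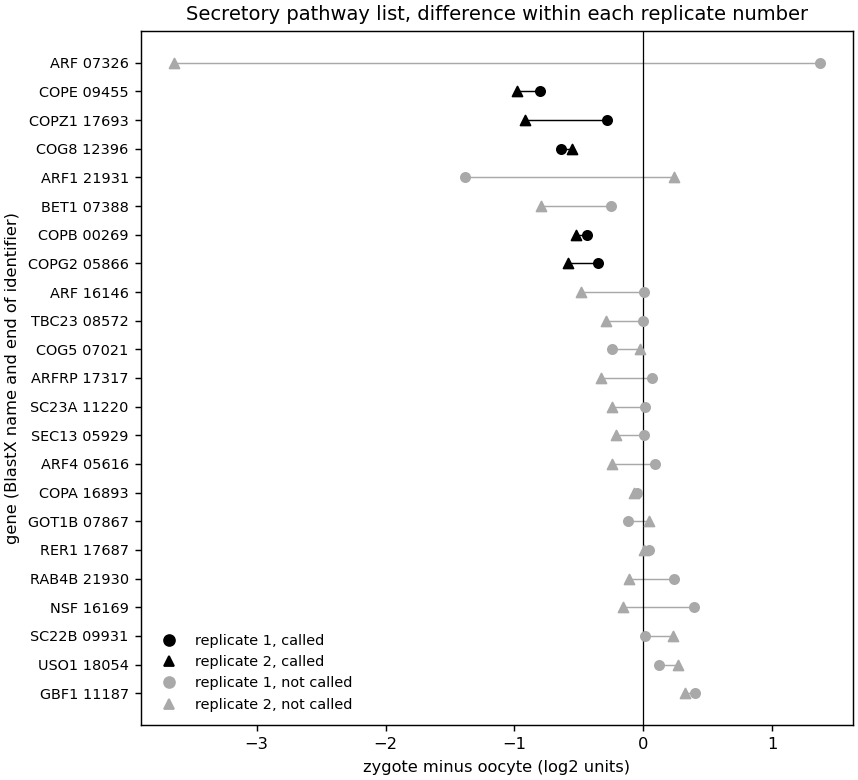
The horizontal axis gives the zygote minus oocyte difference in log2(value + 1) units for the 23 tested genes of the secretory pathway list, one row per gene, with circles for replicate number 1 and triangles for number 2. The 5 called genes (black) lie below 0 in both numbers, COPE the furthest of them in the mean (-0.89), while COPA lies near 0, and the most spread ARF row is a gene with values of 72.8 or less.

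The transcription factor *XBP1* (OFUSG15267), which in mammals drives genes of the unfolded protein response and of secretory capacity, was lower as well. Its values were 1341 and 1219 in zygotes, against 2003 and 2882 in oocytes (-0.91 ± 0.15, adjusted p = 0.014), with no overlap. Of 54 transcription factors, 33 were tested, and 0 were called higher and 3 lower, beside 4.86% and 4.05% of all genes. Their median difference was 0.03. A second called gene was *ETS2B* (OFUSG17170), matching a frog ETS-domain factor, a family often acting downstream of growth factor signals. It had 7.98 and 7.33 in zygotes, against 111 and 37 in oocytes (-2.91 ± 0.77, adjusted p = 0.0406), and stayed at or below 4.19 at the 2-cell stage and 3.47 at the 8-cell stage. Without oocyte replicate 1 its difference was -1.99 (adjusted p = 0.161). The homeobox gene *HMX3* (OFUSG06621) had 767 and 870 in zygotes, against 1010 and 1241 in oocytes (-0.45 ± 0.13, adjusted p = 0.0479), and was not called without oocyte replicate 2 (adjusted p = 0.0702). A large difference that did not pass the test was that of *EGR1A* (OFUSG19246), matching a zinc-finger factor induced early by many stimuli. It had 4.79 and 9.76 in zygotes, against 174 and 140 in oocytes (-4.32 ± 1.35, adjusted p = 0.0678). Among abundant factors, *MTA1* (OFUSG12111) had 13325 and 15417 in zygotes and 11325 and 14919 in oocytes, and *CR3L3* (OFUSG19658), a CREB3-like factor, had 11707 and 8163 in zygotes and 12070 and 9263 in oocytes. Neither was called. Of the 54 factors, 18 had values under 10 in all 4 libraries and 5 were listed at 0 in all of them.

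Of 9 genes with muscle-type names, 7 were tested, of which 5 had a negative difference and 1 was called lower, beside 4.05% of all genes. Their median was -0.37, beside -0.03 over all genes. This group was put together after the values were seen. The called gene, *MYS* (OFUSG11159), matching a scallop muscle myosin heavy chain, had 471 and 544 in zygotes, against 1105 and 1230 in oocytes (-1.2 ± 0.21, adjusted p = 0.0161), and the stages did not overlap. The actin-binding calponin *CNN3* (OFUSG08661) had 39.9 and 26.9 in zygotes, against 594 and 124 in oocytes, but did not pass the test (-3.02 ± 0.89, adjusted p = 0.058). Troponin C, *TNNC* (OFUSG17939), was listed at 0 in both zygotes, with 28.6 and 3.25 in the oocytes, and was under the filter of the blocked fit. Troponin T, *TNNT* (OFUSG08010), had 13329 and 10217 in zygotes, against 14832 and 15237 in oocytes, so that both zygotes lay below both oocytes, but it did not pass the test (-0.37, adjusted p = 0.0773). A mouse titin match (OFUSG15895) had 283 and 380 in zygotes, against 387 and 426 in oocytes (-0.31, adjusted p = 0.51). *MYPH* (OFUSG01612) had 219 and 1.22 in zygotes, against 298 and 12.9 in oocytes (-1.55, adjusted p = 0.168). The tested genes without a negative difference were troponin I, *TNNI* (OFUSG08007), with 1318 and 1314 in zygotes and 1454 and 1189 in oocytes, and a fly titin match (OFUSG15046), with 15977 and 17243 in zygotes and 16181 and 9283 in oocytes (0.44, adjusted p = 0.135). The part of other tissue in the oocyte libraries was not tested. Of the calmodulin-like and EF-hand genes, 7 of 9 were tested, and 0 were called higher and 1 lower, beside 4.86% and 4.05% of all genes, with a median of -0.67. The called gene, *CALL3* (OFUSG07317), had 9.57 and 22 in zygotes, against 45.3 and 210 in oocytes (-2.66 ± 0.74, adjusted p = 0.0466), and was not called without oocyte replicate 2 (adjusted p = 0.227). The most abundant member, *CML3* (OFUSG14317), had 40808 and 32698 in zygotes, against 28757 and 27324 in oocytes, and was not called (0.38, adjusted p = 0.475).

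The named genes called higher in zygotes by the most, among those with no overlap between stages, were *SLIT*, *FAT1* and *PLXA2*. *FAT1* (OFUSG02543), a giant atypical cadherin with roles in planar polarity, had 14953 and 12496 in zygotes, against 11055 and 4193 in oocytes (1.01 ± 0.22, adjusted p = 0.0257), with no overlap. The difference was 0.44 within replicate number 1 and 1.58 within number 2, and the fitted difference was 0.48 without oocyte replicate 2 and 1.53 without oocyte replicate 1. *PLXA2* (OFUSG06649), a plexin receptor for semaphorins, had 2347 and 2432 in zygotes, against 1587 and 987 in oocytes (0.93 ± 0.16, adjusted p = 0.0141). It had 3354 and 2988 at the 8-cell stage. The secreted guidance ligand *SLIT* (OFUSG06632), matching the fly gene, had 150 and 215 in zygotes, against 68.4 and 114 in oocytes (1.01 ± 0.22, adjusted p = 0.0242). It was the one called gene of the 17 higher ones whose change was larger within number 1, where it was 1.12, than within number 2, where it was 0.9.

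Of the list of FGF and VEGF receptors and ligand, 2 of 3 genes were called higher and 0 lower, beside 4.86% and 4.05% of all genes, with a median of 0.5. Both called genes are receptor tyrosine kinases, and FGF receptor signalling through ERK1/2 is the subject of the study at later stages. *FGFR* (OFUSG19037) had 990 and 706 in zygotes, against 759 and 301 in oocytes (0.81 ± 0.2, adjusted p = 0.0335). *VEGFR* (OFUSG03166) had 10464 and 3952 in zygotes, against 8461 and 2428 in oocytes (0.5 ± 0.12, adjusted p = 0.0336). Both genes overlapped between stages, since replicate 1 was the higher one in each stage, and both were higher in the zygote within each number. Without oocyte replicate 2 the differences were 0.44 for *FGFR* (adjusted p = 0.105) and 0.33 for *VEGFR* (adjusted p = 0.0654). Without zygote replicate 1 they were 0.97 (adjusted p = 0.0577) and 0.58 (adjusted p = 0.0631), and neither was called without zygote replicate 2. In the fit without the block, leaving out oocyte replicate 2 turned the sign of *VEGFR*, to -0.40. The VEGF-type ligand *VEGFA* (OFUSG02486) had 946 and 1008 in zygotes, against 1073 and 1161 in oocytes, and was not called (adjusted p = 0.386).

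The other named genes called higher in zygotes had varied roles. *WNK1* (OFUSG06195), a kinase that controls ion transport and cell volume in mammals, had 1563 and 1929 in zygotes, against 1125 and 841 in oocytes (0.83 ± 0.17, adjusted p = 0.0186). *RGS12* (OFUSG06676), a regulator that shortens G-protein signals, had 1342 and 1438 in zygotes, against 1079 and 663 in oocytes (0.72 ± 0.17, adjusted p = 0.0299), and the difference was 0.43 without oocyte replicate 2 (adjusted p = 0.0726). *MADD* (OFUSG25381), an exchange factor for Rab GTPases, had 1593 and 1600 in zygotes, against 1139 and 1065 in oocytes (0.54 ± 0.12, adjusted p = 0.0244). None of these 3 genes overlapped between stages, and *MADD* changed by 0.48 within replicate number 1 and by 0.59 within number 2. With the block in only the 4 oocyte and zygote libraries, *WNK1* was called, and *RGS12* and *MADD* were not. None of the 3 was called with the separate blocks. *MDR1* (OFUSG01405), an efflux pump of the ABC family, had 5528 and 5429 in zygotes, against 4203 and 3340 in oocytes (0.55 ± 0.11, adjusted p = 0.0205). For *JKIP3* (OFUSG18983), matching a mouse Janus kinase and microtubule-interacting protein, the values were 1454 and 2063 in zygotes and 1168 and 897 in oocytes (0.76 ± 0.19, adjusted p = 0.0336). The difference was 0.39 without oocyte replicate 2. *KTN1* (OFUSG11791), a kinesin-binding protein of the endoplasmic reticulum, had 4204 and 5155 in zygotes, against 3203 and 3750 in oocytes (0.43 ± 0.11, adjusted p = 0.0352). These 3 genes did not overlap between stages either. Also called higher were *M3K15* by 0.96, *SIF2* by 0.82, *C2CD2* by 0.78 and *BRE4* by 0.53, and the zinc-finger gene *ZFP92* was called lower (-0.47). Without oocyte replicate 2 these differences were 0.39 for *M3K15* (adjusted p = 0.196), 0.43 for *SIF2* (adjusted p = 0.129), 0.47 for *C2CD2* (adjusted p = 0.0448), 0.28 for *BRE4* (adjusted p = 0.173) and -0.33 for *ZFP92* (adjusted p = 0.128). Without oocyte replicate 1 that of *M3K15* was 1.52. Of the 15 spindle and cytoskeleton genes, 1 was called higher, *JKIP3*, and 0 lower, beside 4.86% and 4.05% of all genes, with a median of 0.

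Of 15 RNA-binding and translation genes 13 were tested, and 2 were called higher and 1 lower, beside 4.86% and 4.05% of all genes, with a median of -0.25. *RFOX1* (OFUSG18449), a splicing regulator, had 434 and 468 in zygotes, against 311 and 274 in oocytes (0.63 ± 0.17, adjusted p = 0.0451). *R3HD2* (OFUSG13749), a protein with an R3H domain, had 1984 and 1485 in zygotes, against 1609 and 730 in oocytes (0.66 ± 0.17, adjusted p = 0.0377). *ZCHC7* (OFUSG10025), a zinc-knuckle protein of the nuclear RNA surveillance machinery, was lower, with 3406 and 5107 in zygotes, against 4237 and 7311 in oocytes (-0.42 ± 0.11, adjusted p = 0.0403). None of the 3 was called without oocyte replicate 2, where the differences were 0.55 for *RFOX1* (adjusted p = 0.115), 0.34 for *R3HD2* (adjusted p = 0.124) and -0.37 for *ZCHC7* (adjusted p = 0.054). The translation factor subunit *EIF3F* (OFUSG11588) had 4956 and 1493 in zygotes, against 5379 and 3515 in oocytes, and did not pass (adjusted p = 0.0821). A match to the AU-rich element binding protein TIS11, *TISDA* (OFUSG26807), had 418 and 328 in zygotes, against 680 and 438 in oocytes, and was not called (adjusted p = 0.193).

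**Figure D3:**
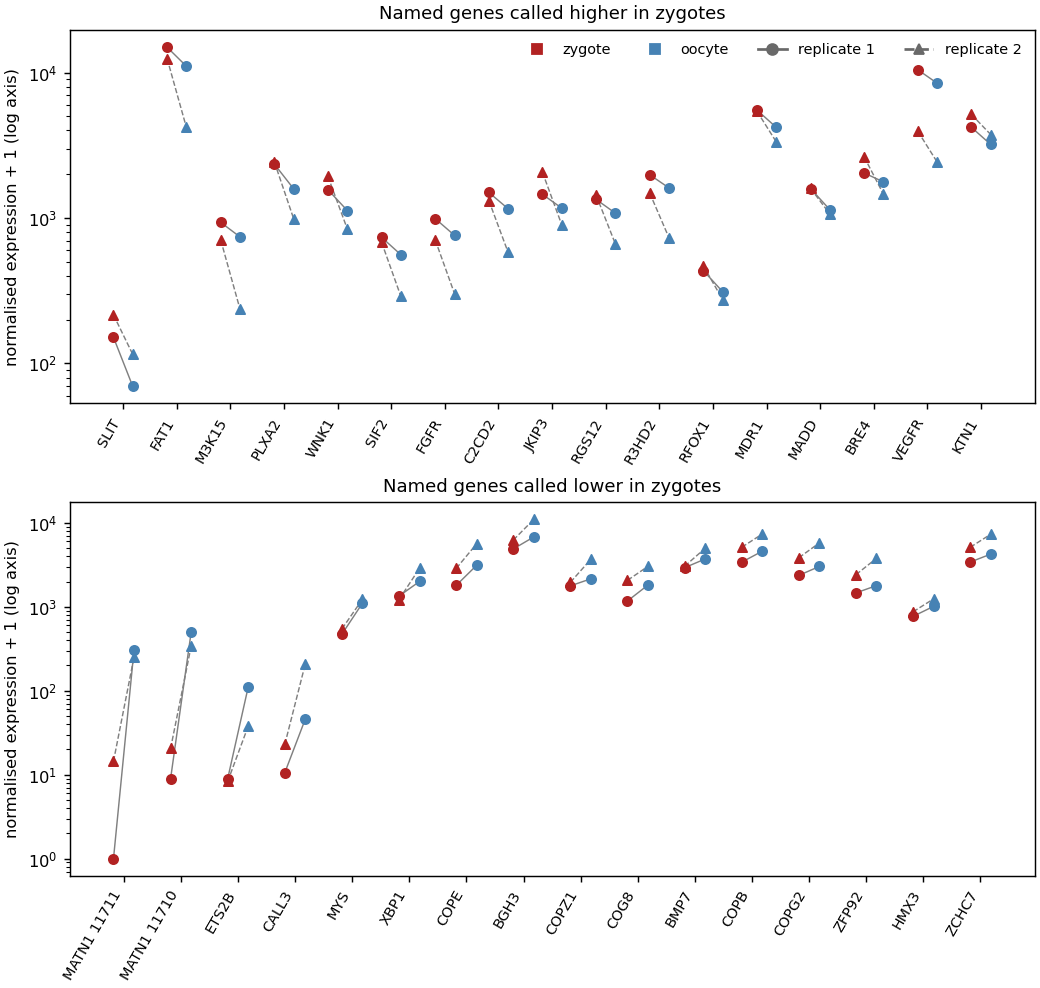
Normalised expression + 1 on a log axis in each library for the 17 named genes called higher in zygotes (top) and the 16 called lower (bottom), with zygotes in red left of oocytes in blue. Circles and solid lines are replicate 1, triangles and dashed lines replicate 2. All lines of a panel slope the same way, with the steepest for the matrilin pair, and the dashed line is the steeper one for most genes of the top panel.

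Of the growth factor and patterning pathways, 1 ligand was called. *BMP7* (OFUSG23310), a bone morphogenetic protein, had 2921 and 3036 in zygotes, against 3708 and 4974 in oocytes (-0.53 ± 0.12, adjusted p = 0.0251), with no overlap. It was the only gene called of 5 tested in the BMP and activin list, beside 4.05% of all genes called lower, and the list's median was -0.15. The BMP inhibitor *BAMBI* (OFUSG04738) had 445 and 421 in zygotes and 437 and 530 in oocytes. In the Wnt list, 0 of 7 genes tested were called (limma, 1 with an unadjusted p under 0.05), with a median of 0.11. Its most abundant member was the receptor *FZ10B* (OFUSG01215), with 3813 and 3335 in zygotes and 3561 and 3065 in oocytes. The ligand *wnt4* (OFUSG13755) followed the replicate number, with 0 and 122 in zygotes and 3.11 and 222 in oocytes. In the Notch list, 0 of 4 were called (0 with an unadjusted p under 0.05), with a median of -0.11, and the ligand *delta* (OFUSG11344) had 364 and 349 in zygotes and 334 and 365 in oocytes.

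The 22 candidate genes of the embryonic organiser, which serve here as markers of later embryonic cells, had values of 222 or less in these libraries, except *delta* and *BAMBI*. Their values summed to 1136 and 1139 in zygotes and to 1114 and 1554 in oocytes. Of the 22 genes, 7 were under 10 in all 4 libraries, and *hand2* was listed at 0 in all of them. Of the 15 tested, 0 were called (limma, 1 with an unadjusted p under 0.05), with a median of -0.15. Besides *delta* and *BAMBI*, the genes with the highest values were *wnt4* and *lhx1/5* (OFUSG14965), which had 71.8 and 83 in zygotes and 91.9 and 164 in oocytes. The posterior gene *cdx* (OFUSG03177) had 60.6 and 24.4 in zygotes, against 73.2 and 58 in oocytes, and *gsc* (OFUSG11740) had 87.7 and 22 in zygotes, against 71.8 and 38.7 in oocytes.

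As spermatozoa could be left with the zygotes, genes of sperm and cilia were followed as markers. Of 15 such genes, 12 were tested and 0 were called (limma, 4 with an unadjusted p under 0.05), beside 4.86% of all genes called higher and 4.05% lower. Of the 12, 6 differences were positive and 6 negative, with a median of -0.03 beside -0.03 over all genes. The values of the 15 genes summed to 8376 and 7574 in zygotes and to 7732 and 7077 in oocytes. The most abundant, the tektin *TEKT3* (OFUSG10091), had 3921 and 2495 in zygotes and 3405 and 2718 in oocytes. All 4 genes with an unadjusted p under 0.05 had a positive difference. Of these, the abundant *WDR87* (OFUSG16369) had 1698 and 2083 in zygotes, against 1518 and 1304 in oocytes (0.42, adjusted p = 0.0887), and *DLEC1* (OFUSG16554) had 1109 and 1209 in zygotes, against 968 and 944 in oocytes (0.28, adjusted p = 0.179). The others were low genes. *TPPP3* (OFUSG22805) had 17.5 and 19.6 in zygotes, against 0 and 8.07 in oocytes (adjusted p = 0.0842). The sperm fibrous sheath gene *FSIP2* (OFUSG07015) had 11.2 and 2.44 in zygotes, against 1.56 and 0 in oocytes (adjusted p = 0.135). Below the filter of the blocked fit, *CNBD2* (OFUSG03260) had 4.79 and 11, against 0 in both oocyte libraries. The sperm protein *DCST1* (OFUSG26111) had 7.98 and 34.2 in zygotes and 14 and 35.4 in oocytes. Among the negative differences, both zygotes of *BBS5* (OFUSG15937) lay below both oocytes, with 274 and 249 against 305 and 416 (adjusted p = 0.311).

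Few genes were found at only one of the oocyte and zygote stages. A value of at least 10 in both zygotes and at most 1 in both oocytes was seen for 3 genes, all with no name and named here by that count. OFUSG06113 had 49.5 and 57.3 in zygotes and was listed at 0 in both oocytes, and it was called (adjusted p = 0.0457). It was at 0 and 50.7 at the 2-cell stage and at 0 in both 8-cell libraries. OFUSG10305 had 11.2 and 12.2 in zygotes (adjusted p = 0.0204) and stayed at 6.99 and 12.7 at the 8-cell stage. OFUSG07277 had 14.3 and 11.1 in zygotes and was listed at 0 in both 8-cell libraries. In the other direction, 5 genes had at least 10 in both oocytes and were listed at 0 in both zygotes. OFUSG16774 had 23.3 and 17.7 in the oocytes, OFUSG15567 had 18.7 and 16.1, and OFUSG16584 had 15.6 and 50, and these 3 were called. OFUSG04345 (39.1 and 14.5) and OFUSG13514 (17.2 and 11.3) were not. Some of these low genes had values again later. At the 8-cell stage, OFUSG16774 had 0 and 10.4, OFUSG04345 had 0 and 9.28, and OFUSG16584 had 4.2 and 0. OFUSG13514 had 0 and 1.16 there, and OFUSG15567 was listed at 0 in both libraries. At a minimum of 50 in place of 10, no gene met either criterion.

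**Figure D4:**
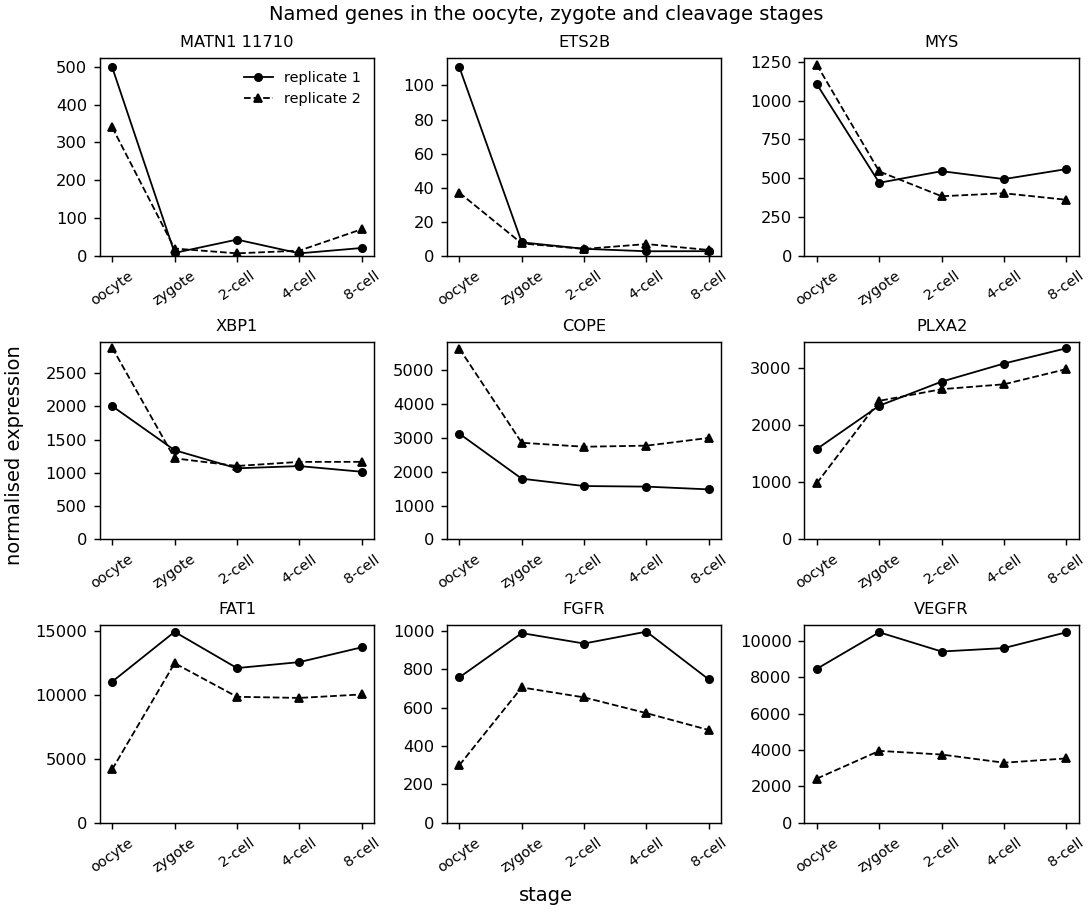
Normalised expression (linear axis from 0) at the oocyte, zygote, 2-cell, 4-cell and 8-cell stages for 9 named genes, with circles and a solid line for replicate 1 and triangles and a dashed line for replicate 2. Between oocyte and zygote each line of MATN1 OFUSG11710, ETS2B, MYS, XBP1 and COPE drops and each line of PLXA2, FAT1, FGFR and VEGFR climbs, and the replicates of VEGFR stay apart at every stage.

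In the fit without the replicate number, the 12 named genes in each direction with the smallest unadjusted p and no overlap between stages included 11 of the genes called above, 5 higher and 6 lower. Among those lower in zygotes they included *ETS2B* (adjusted p = 0.303), *MATN1* OFUSG11710 (adjusted p = 0.426), *MYS*, *MATN1* OFUSG11711, *CNN3*, *EGR1A*, *CALL3*, *XBP1* and *TNNC*. The remaining 3 were low genes: *APCD1* (OFUSG05158), listed at 0 in both zygotes with 6.22 and 11.3 in oocytes (adjusted p = 0.199), *EAA1* and *YT66*. Among those higher in zygotes they included *PLXA2* (adjusted p = 0.752), *SLIT* (adjusted p = 0.766), *MADD*, *RGS12* and *FAT1*, and the low genes *CNBD2*, *TPPP3*, *ANKR2*, *CO6A3*, *CTRB*, *CHS2* and *FER3L*, which had values of 19.6 or less. None of these 24 genes passed the test in that fit, where the adjusted p was 0.199 or more.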

How the data were processed

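RNA-seq values were taken from the table deposited by the authors, which holds normalised expression per transcript and library (unit: signal). In the submitters' processing notes, the authors name kallisto 0.46.2, DESeq2 1.30.1 and R 3.6, and no role is given for each. The study used the published *O. fusiformis* genome annotation. It describes stranded mRNA libraries for drug-treated embryos, and the RNA selection of the time course is not given in the sources used here. Low values move in steps that differ between transcripts, so whole reads could not be recovered and no count test was run. The depths given are estimates from these steps.

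The 31903 transcripts were summed by identifier to 26966 genes. Of the columns, 20 matched a sample and 7 were not used. On the log2(value + 1) scale, limma 3.58.1 (R 4.3.3) was run with a variance trend and Benjamini-Hochberg adjustment at 0.05, over genes with at least 10 in at least 2 libraries of the fit. The fit as first set out had stage as the only factor in 20 libraries. An exact permutation test of 2 against 2 cannot give a two-sided p under 0.333. The blocked fit, added after the data were seen, took the replicate number as a block in the 10 libraries from the oocyte to the 8-cell stage, where the numbers deviated together in all 10 pairs of stages. Over all 10 stages this held at r over 0.1 in 35 of 45 pairs. Nothing in the labels ties a number to parents, a batch or a day.

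The members and gene lists were chosen with earlier results of these data known. Genes were named by their best protein match in the supplementary table of drug-responsive genes, 581 in all. The named genes were the 12 largest changes in each direction with a name and no overlap between stages, filled up by the smallest p where fewer were called, the 2 largest changes in each direction, list members called, the 22 candidate genes, *FGFR* and *VEGFR*. Applied to the fit as first set out, the rule gave 24 genes, none called, and it was applied to the blocked fit as well. The remaining named genes called there were added. The alternatives were other scaling, filters, pseudocounts, no trend, fewer libraries, the block, leaving out each library and transcripts as deposited. Figures were drawn with Python 3.11.15 and matplotlib 3.10.9.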

Additional observations from a re-analysis of the deposited data

How the results depend on the processing

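Without the replicate number, 0 genes were called, and 2 were with a pseudocount of 0.1, 3 without the trend, 7 with transcripts as deposited and 0 to 4 when one library was left out. With the replicate block, 1661 genes were called in the 10 early libraries, 445 in only the 4 oocyte and zygote libraries, 358 with a separate block up to 5 hpf and from 9 hpf on, 0 in all 20 libraries with a single block, 0 without the trend and 117 with transcripts as deposited. With the block, leaving out one library gave 0 to 6234 genes. Trimmed-mean scaling (1420 genes), median-of-ratios scaling over the 4 libraries (1577), no filter (1434), a filter over the 4 libraries (1719) and pseudocounts of 0.1 (1282) and 10 (1889) stayed within 1.5 times of 1661. Of the 1661 genes, 344 were also called in the same direction with the block in 4 libraries, 324 with the separate blocks, 841 without oocyte replicate 2 and 862 without zygote replicate 1. Of the 33 named genes called, 19 were called without oocyte replicate 2, 9 without zygote replicate 1, 32 without oocyte replicate 1 and 0 without zygote replicate 2, and all 33 kept their direction in these 4 fits. Without oocyte replicate 2, 12 of them moved by more than 1.5 times, and without oocyte replicate 1, 3 did.

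Without the block, the direction turned for *VEGFR* (OFUSG03166) without oocyte replicate 2 (-0.40) or zygote replicate 1 (-0.20) and for *ZFP92* (OFUSG21218) without oocyte replicate 2 (0.072). Genes found at one stage only numbered 0 in each direction at a threshold of 50 and, with transcripts as deposited, 56 in zygotes and 35 in oocytes. The causes were not tested. Count tests on whole reads were not run. With 2 libraries a stage, a fit that leaves one out assumes that the lone library varies like the others.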

Other observations

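A minority of the genes called in the blocked fit had a neighbour by identifier called the same way, a larger share than among all genes tested. Of the 906 genes higher in zygotes, 129 had a gene with the identifier one below or one above that was also higher, which is 14.2%, beside 7.9% of all genes tested. Of the 755 lower genes, 86 had such a neighbour, 11.4% beside 6.7%. Whether consecutive identifiers are neighbours in the genome or related copies was not tested.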
